A study of Homo sapiens with 48 samples.

Results

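The comparison of T-REX with DMSO at 6 h rested on 8 of the 48 libraries of the series, 4 of each arm, chosen by their labels, and on all 14685 genes of the 6 h count table. T-REX is a method that delivers a reactive lipid aldehyde, 4-hydroxynonenal (HNE), to 1 chosen protein, here NCBP1 fused to Halo. All arms were HEK293T cells, a line of embryonic kidney origin that carries the SV40 large T antigen, labelled as wild type and epithelial-like, and per the study's methods all were transiently transfected with a plasmid for the fusion, so that each culture mixes cells that took up different amounts of it. T-REX cells received the photocaged probe Ht-PreHNE, which binds to Halo, were rinsed and were then illuminated. DMSO cells received the vehicle with neither probe nor light. The arms therefore differ by the probe and the light as well as by the modified NCBP1, and this contrast alone cannot tell them apart. Light alone and probe alone, with 4 libraries each, were the other arms of 6 h, and 3 h and 12 h held the same arms. The labels call the light alone arm a UV control and do not mention the probe, while the study's list of controls gives it the probe as well, so whether these cells received probe is uncertain. The series describes its replicates as independent biological replicates.

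NCBP1 forms, with a small partner, the nuclear complex that binds the 5′ cap of new transcripts and takes part in their splicing, 3′ end formation and export. HNE is made when membrane lipids oxidize, and it attaches to cysteines of proteins. Cells answer many kinds of stress through a small number of transcription programs. ATF4 raises genes for amino acid uptake and synthesis, XBP1, ATF6 and the CREB3 family raise genes of the secretory pathway, HIF raises hypoxia targets, and MondoA, which senses glucose phosphates, drives TXNIP and ARRDC4.

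Total counts lay between 28648934 and 35492475 in the T-REX libraries and between 26482339 and 31999611 in the DMSO libraries, and the lowest count of any gene in these 8 libraries was 9. Levels are given as CPM, counts scaled to a common library size by edgeR's TMM factors and set per 1e6 counts, for replicates 1 to 4 in that order. The gene of the transfected protein, NCBP1, took 7.29, 6.52, 6.98 and 8.04% of all counts in T-REX and 5.19, 5.45, 4.83 and 6.07% in DMSO. It took 4.43, 3.19, 3.77 and 5.34% in light alone and 8.43, 6.37, 8.48 and 8.72% in probe alone. The bearing of these unequal shares on other genes was not tested. All 4 T-REX shares lay above the DMSO shares, but the log2 fold change of 0.44 ± 0.136 (SE), adjusted p = 0.175 did not pass the test (edgeR's quasi-likelihood F-test, adjusted by Benjamini-Hochberg across the whole table, as is each adjusted p below), and counts of the plasmid and of the cell's own NCBP1 cannot be told apart. The difference passed with only the 8 libraries of both arms in the fit (adjusted p = 0.00515). Of 10 markers of HEK293T cells, 9 were analysed and all 9 had counts in each library, with a summed level of 699 to 756 CPM in T-REX and 754 to 842 CPM in DMSO. Of 13 markers of other cell types, COL1A1 and ACTA2 were analysed, with a summed level of 24 to 26.1 CPM in T-REX and 23.2 to 29.9 CPM in DMSO, and the other 11 were not analysed here.

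In the edgeR fit over the 4 arms of 6 h, few genes were called between T-REX and DMSO, and most of their differences were small. Of the 14685 genes, 61 (0.415%) passed an adjusted p of 0.05, of which 26 (0.177%) were higher and 35 (0.238%) were lower in T-REX. The size of the log2 fold change of the called genes had a median of 0.386 and ran from 0.205 to 1.65, while the median over all genes was -0.00185. At an unadjusted p of 0.05, 813 genes were higher and 1013 lower. In 58 of the 61 called genes, the 4 T-REX libraries did not overlap with the 4 DMSO libraries, against 1165 (7.93%) of all genes. The calls were made on these same libraries, so the lack of overlap largely follows from them and is no separate evidence. IER3, NT5C3B and PPP1R16A were the called genes whose libraries overlapped. The median SD of a gene over 4 libraries, on the log2 CPM scale, was 0.0873 in T-REX and 0.0991 in DMSO. DESeq2's Wald test on the same libraries called 288 genes, 104 higher and 184 lower.

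**Figure D1:**
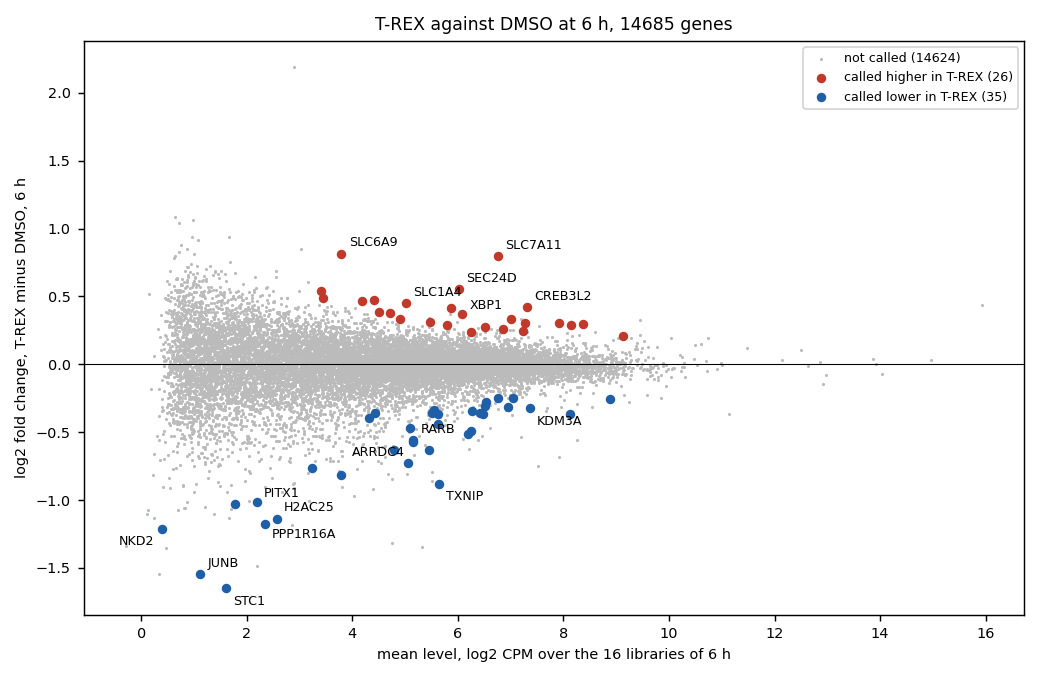
Each point is 1 gene, with its mean level over the 16 libraries of 6 h (log2 CPM) on the x axis and its log2 fold change, T-REX minus DMSO, on the y axis. Red points are the 26 genes called higher and blue points the 35 called lower, and the highest point of the plot, at 2.19, was not called.

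The number of calls depended on single libraries. Without T-REX library 1, 2 or 3 it was 20, 11 or 26, without DMSO library 1, 3 or 4 it was 18, 24 or 138, without light alone library 1 or 3 it was 40 or 222, and without probe alone library 2 it was 40. The 4 arms share 1 spread per gene in this fit. Of the 16 libraries of 6 h, light alone library 3 had the largest median absolute deviation from its arm mean (0.141 on the log2 scale). The sign of each of the 61 genes was kept in all 25 alternatives. Some of these could hardly turn a sign. The filter on low counts removed 0 genes, and leaving out a light alone or probe alone library keeps all T-REX and DMSO libraries. SLC7A11, SLC6A9, SEC24D, CREB3L2, TXNIP, ARRDC4, RARB and FBXO5 were called in all 25, and the other 53 genes missed the threshold in 1 to 19 of them.

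Among genes of amino acid supply, 7 rose, and SLC6A9 and SLC7A11 had the largest increases of all called genes. Of 11 amino acid transporters, 4 were called higher and 0 lower, with a list median of 0.15, and of 15 genes of amino acid and one-carbon synthesis, 3 were called higher and 0 lower, with a list median of 0.22. All 15 of the latter had a log2 fold change above 0, against 7252 of all 14685 genes. Of all genes, 26 (0.177%) were called higher.

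SLC7A11 encodes the cystine-glutamate antiporter that feeds glutathione synthesis. Its levels were 159, 156, 144 and 163 CPM in the T-REX libraries and 88.1, 89.4, 76.5 and 105 CPM in the DMSO libraries. Every T-REX library lay far above every DMSO library, a 1.74-fold difference (log2 fold change 0.80 ± 0.0797 (SE), adjusted p = 8.02e-06). SLC6A9 encodes the glycine transporter GlyT1. Its levels were 18.04, 16.5, 17.4 and 22.9 CPM in the T-REX libraries and 10.1, 9.21, 12.7 and 10.5 CPM in the DMSO libraries. The arms did not overlap, and T-REX library 4 was the highest (1.76-fold, log2 fold change 0.82 ± 0.123 (SE), adjusted p = 0.00148). SLC1A4 encodes a carrier of neutral amino acids such as serine and alanine. It measured 38.9, 40.8, 39.5 and 41.8 CPM in the T-REX libraries and 29.9, 30.3, 27.9 and 29.4 CPM in the DMSO libraries. Both arms were tight and 1.37-fold apart (log2 fold change 0.45 ± 0.077 (SE), adjusted p = 0.00626). The call was lost with DMSO libraries 1 and 3 both left out (adjusted p = 0.183). SLC38A1, a glutamine transporter, measured 621, 589, 615 and 599.5 CPM in the T-REX libraries and 528, 532, 489 and 556 CPM in the DMSO libraries. The arms did not overlap but lay close together (log2 fold change 0.20 ± 0.0458 (SE), adjusted p = 0.0453), and the call was lost without T-REX library 1, 2, 3 or 4 or DMSO library 1, 2 or 3 or light alone library 1 or 2 or probe alone library 1, 2, 3 or 4 (adjusted p up to 0.16). Over all 25 alternatives, its adjusted p rose to 0.541.

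PSAT1 carries out the second step of serine synthesis. Its levels were 146, 150.3, 153 and 148 CPM in the T-REX libraries and 125, 111, 119 and 117 CPM in the DMSO libraries. The 4 T-REX libraries exceeded all DMSO libraries (log2 fold change 0.34 ± 0.0631 (SE), adjusted p = 0.0149), and the call was lost without T-REX library 2 or 3 (adjusted p up to 0.0638). MTHFD2 is a mitochondrial enzyme of folate metabolism. It measured 105, 103, 100.1 and 102 CPM in the T-REX libraries and 85.01, 86.6, 86.6 and 80.7 CPM in the DMSO libraries. The arms were apart by 1.21-fold (log2 fold change 0.27 ± 0.0554 (SE), adjusted p = 0.0269), and the call was lost without T-REX library 1, 2 or 3 or DMSO library 1 or 3 (adjusted p up to 0.103). ALDH1L2, which oxidizes 10-formyltetrahydrofolate in mitochondria, measured 70.8, 62.7, 62.2 and 77.9 CPM in the T-REX libraries and 52.2, 50.1, 44.7 and 58.1 CPM in the DMSO libraries. T-REX and DMSO did not overlap (log2 fold change 0.42 ± 0.0874 (SE), adjusted p = 0.0335), and the call was lost without T-REX library 1, 2 or 4 or DMSO library 1, 2 or 3 or probe alone library 2 (adjusted p up to 0.129).

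Of 15 ATF4 branch regulators and effectors, 0 were called in either direction (5 had a p of 0.05 or less before adjustment, and DESeq2 called 1), with a list median of 0.113. ATF4 itself was at 0.16 (adjusted p = 0.266). The called amino acid genes above, of a kind that ATF4 raises, were listed apart and are not counted here. The members with the smallest p were NIBAN1, at 0.66 (adjusted p = 0.072), and VLDLR, at 0.32 (adjusted p = 0.173). NIBAN1, a stress-responsive gene, measured 4.06, 3.59, 4.19 and 3.63 CPM in the T-REX libraries and 2.23, 2.51, 2.37 and 2.66 CPM in the DMSO libraries. Its T-REX libraries lay above all DMSO libraries although the adjusted p missed the threshold. Of 20 cytosolic aminoacyl-tRNA synthetases, which charge tRNAs and include many ATF4 targets, 0 were called (4 with p of 0.05 or less before adjustment, and 0 by DESeq2), with a list median of 0.0564. GARS1 was at 0.20 (adjusted p = 0.124) and SARS1 at 0.18 (adjusted p = 0.217).

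The promoters of the called genes were searched for letters of ATF4 sites, because ATF4 binds with C/EBP partners to such composite elements. The window was 250 bases before to 50 bases after each start site in RefSeq's table (GRCh38), which held 46 of the 61 called genes, 19 higher and 27 lower. The motif TGATGNAAN, read on both strands, stood in the window of 6 of the 19 genes called higher (31.6%), 0 of the 27 called lower, and 3.61% of all promoters in the table (2.67% of the genes tested that have an entry). Among the called amino acid genes it was found in SLC1A4 and SLC38A1 alone, and MTHFD2 has an entry without it. The stricter TTGCATCA, whose reverse complement is 1 form of the first motif, stood in SLC1A4 and KCNT2 alone among the 46 called genes with an entry, and in 0.866% of all promoters. The 6 windows are shown around the match, 5′ to 3′ on the strand of the gene, with the match in capitals.
SLC1A4 (chr2:64989355-64989428, plus strand): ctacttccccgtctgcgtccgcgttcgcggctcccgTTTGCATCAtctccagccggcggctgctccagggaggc
SLC38A1 (chr12:46266487-46266556, minus strand): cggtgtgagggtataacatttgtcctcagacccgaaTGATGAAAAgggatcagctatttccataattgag
CREB3L2 (chr7:137932959-137933008, minus strand): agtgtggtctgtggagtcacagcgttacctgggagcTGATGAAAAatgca
CREB5 (chr7:28686013-28686093, plus strand): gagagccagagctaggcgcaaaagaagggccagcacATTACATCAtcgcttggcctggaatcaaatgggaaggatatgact
HRK (chr12:116881472-116881552, minus strand): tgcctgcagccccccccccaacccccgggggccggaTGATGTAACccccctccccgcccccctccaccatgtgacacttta
KCNT2 (chr1:196608494-196608574, minus strand): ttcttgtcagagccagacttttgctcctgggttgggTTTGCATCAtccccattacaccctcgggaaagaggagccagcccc
The matches of SLC1A4, CREB5 and KCNT2 read as the reverse complement, and the match of CREB3L2 lies after the start site. A match of letters is a description of the window and not a measured site. SLC7A11, SEC24D and ALDH1L2 have no entry in the table.

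In the secretory pathway, 2 transcription factors and 1 coat protein rose. Of 25 regulators, chaperones and ERAD factors of the unfolded protein response, 2 were called higher and 0 lower, and 24 had a log2 fold change above 0, with a list median of 0.115. Over all genes, 0.177% were called higher and 49.4% had a log2 fold change above 0. CREB3L2 is a transcription factor anchored in the endoplasmic reticulum that drives genes of secretion. It measured 188, 188, 184 and 191 CPM in the T-REX libraries and 131, 142, 143 and 144 CPM in the DMSO libraries. The T-REX libraries lay within a few CPM of each other, and DMSO library 1 was lower than the other DMSO libraries (log2 fold change 0.42 ± 0.0516 (SE), adjusted p = 8.09e-05). XBP1, the transcription factor made active by IRE1-dependent splicing, measured 79.4, 77.6, 81.3 and 80.5 CPM in the T-REX libraries and 59.9, 62.8, 59.9 and 64.2 CPM in the DMSO libraries. The arms were 1.29-fold apart with no overlap (log2 fold change 0.37 ± 0.0634 (SE), adjusted p = 0.00667). With DMSO libraries 1 and 3 both left out, the call was lost (adjusted p = 0.273). These counts are per gene and do not separate the spliced form of XBP1.

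SEC24D was the 1 member called among 12 genes of the COPII coat, beside 0.415% of all genes. The vesicles of this coat carry cargo from the endoplasmic reticulum to the Golgi. SEC24D selects cargo for these vesicles. Its levels were 76.97, 88.4, 77.5 and 80.6 CPM in the T-REX libraries and 51.04, 59.3, 53.4 and 56.6 CPM in the DMSO libraries. All T-REX libraries were above all DMSO libraries, by 1.47-fold (log2 fold change 0.55 ± 0.0642 (SE), adjusted p = 3.83e-05). The list median of the coat was 0.0728 and the next member by p, SEC13, was at 0.19 (adjusted p = 0.417). Among the called genes outside the lists, USO1, a vesicle tether, was higher at 0.24 (adjusted p = 0.0317), and SSR3, a subunit of the translocon-associated complex, was higher at 0.29 (adjusted p = 0.0341). SPCS1, a subunit of the signal peptidase, was lower at -0.51 (adjusted p = 0.048). The calls of USO1 and SSR3 were lost without T-REX library 1, 2 or 3 or DMSO library 1 or 3, and that of SSR3 also without probe alone library 1 (adjusted p up to 0.152 for USO1 and 0.156 for SSR3). The call of SPCS1 was lost without T-REX library 1, 2, 3 or 4 or DMSO library 1 or 3 or light alone library 1 or 2 or probe alone library 2, 3 or 4 (adjusted p up to 0.158), and with only the 8 libraries of both arms in the fit (adjusted p = 0.103).

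**Figure D2:**
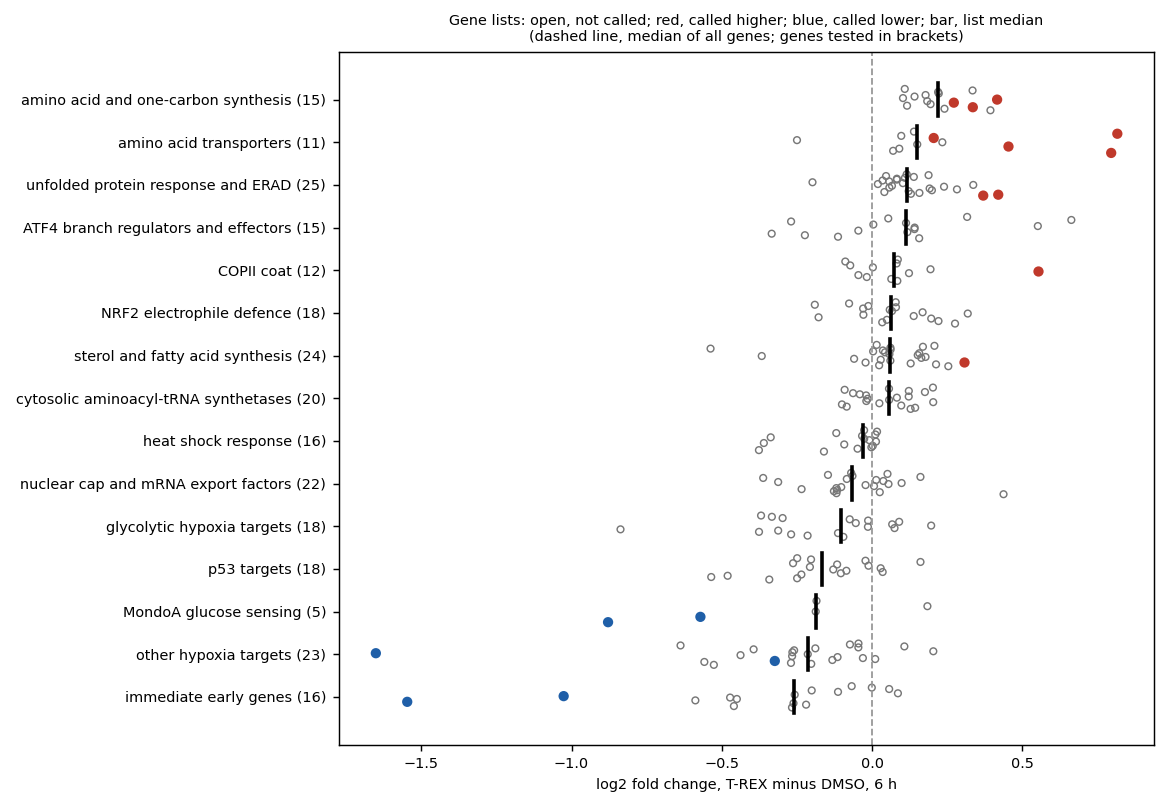
Each row is a gene list, each circle a member placed by its log2 fold change, T-REX minus DMSO at 6 h, and each bar the list median, with the median of all genes as a dashed line. Filled red circles were called higher and filled blue circles lower, and the list medians run from -0.259 for immediate early genes to 0.22 for amino acid and one-carbon synthesis.

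Both best-known MondoA targets fell. TXNIP, an arrestin-like protein that limits glucose uptake, measured 28.4, 33.6, 33.3 and 25.1 CPM in the T-REX libraries and 54.5, 56.7, 55.5 and 54.6 CPM in the DMSO libraries. The highest T-REX library lay well under the lowest DMSO library, 1.84-fold lower (log2 fold change -0.88 ± 0.0899 (SE), adjusted p = 8.02e-06). ARRDC4, a relative of TXNIP with a related role, measured 23.1, 29.2, 27.9 and 24.5 CPM in the T-REX libraries and 37.5, 40.9, 39.4 and 37.8 CPM in the DMSO libraries. It too was lower in every T-REX library (1.49-fold, log2 fold change -0.57 ± 0.0868 (SE), adjusted p = 0.00148). Of the 5 genes of the MondoA list, these 2 were called, and MLXIP, which encodes MondoA, was at -0.19 (adjusted p = 0.321). The list median was -0.188, and 0.238% of all genes were called lower. MondoA binds pairs of E-box-like letters, and CACGTG, a palindrome that holds the shorter ACGTG, stood in the window of ARRDC4, of 4 of the 27 called lower (14.8%), of 3 of the 19 called higher (15.8%), and of 7.26% of all promoters (12.5% of the genes tested that have an entry).
ARRDC4 (chr15:97960457-97960534, plus strand): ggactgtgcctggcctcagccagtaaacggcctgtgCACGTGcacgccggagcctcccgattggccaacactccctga
The window of TXNIP held no CACGTG, which says only that these letters are not in its 300 bases.

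Hypoxia targets leaned lower. Of 23 hypoxia targets outside glycolysis, 2 were called lower and 0 higher, and 20 had a log2 fold change under 0, with a list median of -0.214. Of all 14685 genes, 35 (0.238%) were called lower and 7433 had a log2 fold change under 0. Of 18 glycolytic targets, 0 were called (7 with p of 0.05 or less before adjustment, and DESeq2 called 1 lower), with a list median of -0.104. The other hypoxia targets had 6 calls with DESeq2 and 7 with only the 8 libraries of both arms in the fit, all lower. STC1, stanniocalcin-1, a secreted glycoprotein induced by low oxygen, measured 0.661, 1.29, 1.62 and 0.951 CPM in the T-REX libraries and 4.53, 3.51, 2.69 and 3.65 CPM in the DMSO libraries. These are low counts, yet the arms did not overlap, and STC1 had the largest difference of all called genes (3.14-fold lower, log2 fold change -1.65 ± 0.295 (SE), adjusted p = 0.0114). The call was lost without T-REX library 1 or 2 or DMSO library 1 (adjusted p up to 0.0611). KDM3A, a JmjC histone demethylase that is itself a HIF target, measured 138, 136, 140.2 and 132 CPM in the T-REX libraries and 164, 179.6, 158 and 182 CPM in the DMSO libraries. Its arms did not overlap (log2 fold change -0.32 ± 0.0626 (SE), adjusted p = 0.0184), and the call was lost without T-REX library 1, 2 or 4 (adjusted p up to 0.0842). CITED2, outside the list, competes with HIF for its coactivators. It measured 20.1, 19.5, 21.5 and 22.4 CPM in the T-REX libraries and 33.2, 27.98, 38.1 and 29.8 CPM in the DMSO libraries. Every T-REX library was under every DMSO library (log2 fold change -0.63 ± 0.123 (SE), adjusted p = 0.0251), and the call was lost without T-REX library 1, 2 or 3 or DMSO library 1 or 3 (adjusted p up to 0.111).

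BNIP3, a mitophagy receptor, measured 26.4, 29.2, 31.6 and 27.7 CPM in the T-REX libraries and 43.95, 38.7, 41.95 and 40.8 CPM in the DMSO libraries. T-REX lay wholly under DMSO, but the log2 fold change of -0.53 (adjusted p = 0.0644) missed the threshold. EGLN3, an oxygen-sensing prolyl hydroxylase, was at -0.56 (adjusted p = 0.117), and the chemokine receptor CXCR4 at -0.64 (adjusted p = 0.0785). Of the glycolytic genes, PFKFB3 was at -0.38 (adjusted p = 0.112) and ALDOA at -0.84 (adjusted p = 0.193). The letters ACGTG, the core of the hypoxia response element, stood in 14 of the 27 windows of genes called lower (51.9%), in 9 of the 19 called higher (47.4%), and in 21.4% of all promoters (32.6% of the genes tested that have an entry).

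**Figure D3:**
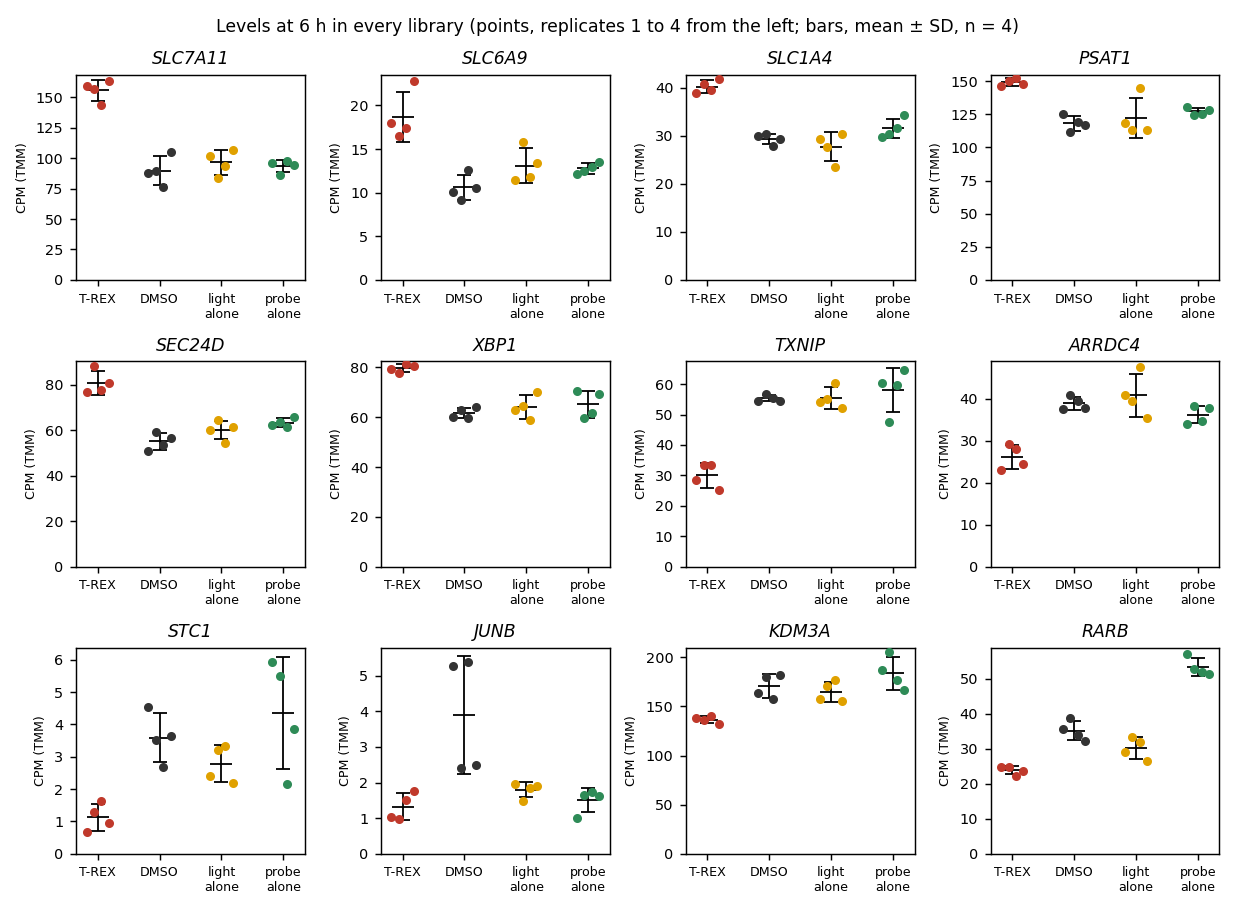
Levels of 12 genes at 6 h in CPM, with 1 point per library and the mean ± SD of the 4 libraries of each arm. In SLC7A11, SLC6A9, SLC1A4, PSAT1, SEC24D and XBP1 the T-REX points lie above all others, in TXNIP, ARRDC4, STC1, KDM3A and RARB below all others, and in JUNB the T-REX points overlap with light alone and probe alone.

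Immediate early genes, which respond first to many signals, leaned lower. Of 16, 2 were called lower and 0 higher, and the list median was -0.259. Over all genes, 0.238% were called lower and the median was -0.00185. JUNB, a subunit of AP-1, measured 1.02, 0.976, 1.51 and 1.77 CPM in the T-REX libraries and 5.27, 2.42, 5.37 and 2.497 CPM in the DMSO libraries. DMSO libraries 1 and 3 were high, and DMSO libraries 2 and 4 were nearer to T-REX (log2 fold change -1.55 ± 0.276 (SE), adjusted p = 0.00935). The call was lost without T-REX library 1 or 2 or DMSO library 1 (adjusted p up to 0.0633). It was also lost with DMSO libraries 1 and 3 both left out (adjusted p = 0.494). IER3 measured 1.92, 2.48, 1.97 and 3.16 CPM in the T-REX libraries and 5.38, 3.07, 6.64 and 4.303 CPM in the DMSO libraries. Its arms overlapped, with the same DMSO libraries highest (log2 fold change -1.03 ± 0.231 (SE), adjusted p = 0.046), and the call was lost without T-REX library 1, 2 or 3 or DMSO library 1 or 3 or light alone library 1 or 2 or probe alone library 2, 3 or 4 (adjusted p up to 0.19).

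This order of the DMSO libraries was shared by many genes called lower. In 19 of the 35, DMSO libraries 1 and 3 both lay above DMSO libraries 2 and 4, against 2061 (27.7%) of the 7433 genes with a log2 fold change under 0, 3115 (21.2%) of all genes and 2 of the 26 called higher. These 19 included PITX1, CDC34, TNRC18, GNA11, H2AC25 and PPP1R16A. PITX1, a homeobox transcription factor, measured 2.44, 3.35, 3.704 and 3.94 CPM in the T-REX libraries and 8.35, 5.21, 9.72 and 3.97 CPM in the DMSO libraries. Only DMSO libraries 1 and 3 stood well above T-REX (log2 fold change -1.01 ± 0.219 (SE), adjusted p = 0.0398). H2AC25, a histone H2A gene, measured 4.36, 4.36, 4.64 and 4.01 CPM in the T-REX libraries and 10.7, 6.48, 15.3 and 5.85 CPM in the DMSO libraries. The arms did not overlap, and DMSO library 3 was the highest (log2 fold change -1.14 ± 0.217 (SE), adjusted p = 0.0198). CDC34, a ubiquitin-conjugating enzyme, measured 9.84, 11.9, 11.5 and 11.2 CPM in the T-REX libraries and 23.03, 16.1, 25.8 and 13.2 CPM in the DMSO libraries. Its T-REX libraries were even, and DMSO library 4 lay just above them (log2 fold change -0.81 ± 0.173 (SE), adjusted p = 0.0436). GNA11, a G protein alpha subunit, was at -0.63 ± 0.126 (SE), adjusted p = 0.0335, TNRC18 at -0.73 ± 0.154 (SE), adjusted p = 0.049, and NKD2, an antagonist of Wnt signalling, at -1.21 ± 0.266 (SE), adjusted p = 0.0398. NKD2 is not among the 19. The calls of PITX1, H2AC25, CDC34, GNA11, TNRC18, NKD2 and PPP1R16A were each lost without DMSO library 3, with an adjusted p of 0.161, 0.0587, 0.129, 0.0967, 0.115, 0.159 and 0.139 in that order, and each also without T-REX library 1, 2 or 3 or DMSO library 1. With only the 8 libraries of both arms in the fit, NKD2 was called (adjusted p = 0.0249), but PITX1, H2AC25, CDC34, GNA11, TNRC18 and PPP1R16A were not (adjusted p = 0.113, 0.137, 0.0928, 0.149, 0.166 and 0.204).

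The 19 genes with this order of DMSO libraries were also mostly rich in G and C. The median GC content of the longest transcript was 42.5% for genes called higher, 53.3% for genes called lower and 47.2% for all genes, and it was 58.8% for the 19 genes named by the DMSO order against 43.8% for the other genes called lower. The third of genes richest in GC, from 52.1%, held 18 of the 35 lower calls and 1 of the 26 higher calls. The slope of a library's log2 level on GC, per 10 percentage points, ran from -0.0730 to 0.0815 in T-REX and from -0.0306 to 0.181 in DMSO, where library 3 was highest and library 1, at 0.0545, second. With offsets for GC and length in the fit, chosen after seeing the data, 271 genes were called, 88 higher and 183 lower, and 53 of the 61 genes were among them. NKD2 (-0.85, adjusted p = 0.0856), PITX1 (-0.56, adjusted p = 0.0559), SP9, ZIC2, SOX4, IRS4, CSTB and NR2F1 were not called there, whereas JUNB (-1.26, adjusted p = 0.00338) and H2AC25 (-1.07, adjusted p = 0.00338) were. With both DMSO libraries 1 and 3 left out, also chosen after seeing the data, 10 genes were called, 5 higher and 5 lower, of which 9 were among the 61. These 9 were SLC7A11, SLC6A9, SEC24D, CREB3L2, TXNIP, ARRDC4, RARB, FBXO5 and KDM3A. Unless both libraries are named, the calls said to be lost without a library refer to 1 library left out at a time. The part of GC content in these differences was not tested beyond these fits.

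Some genes called lower encode developmental transcription factors, named here after their values were seen and with no fixed list or count over all genes. RARB, a retinoic acid receptor, measured 24.7, 24.9, 22.3 and 23.7 CPM in the T-REX libraries and 35.7, 38.7, 33.9 and 32.3 CPM in the DMSO libraries. The arms were 1.47-fold apart without overlap (log2 fold change -0.56 ± 0.0787 (SE), adjusted p = 0.000721). POU3F2, a POU-domain factor of neural development, measured 69.3, 76.5, 73.3 and 64.5 CPM in the T-REX libraries and 91.3, 93.5, 90.1 and 90.4 CPM in the DMSO libraries. Every T-REX library was lower (log2 fold change -0.37 ± 0.0792 (SE), adjusted p = 0.0398), and the call was lost without T-REX library 1, 2, 3 or 4 or DMSO library 1, 2 or 3 or light alone library 1 or 2 or probe alone library 1, 2 or 3 (adjusted p up to 0.137). SP9, NR2F1, ZIC2, SOX4, TFAP2A and the HLH protein ID2 were lower as well, at -0.76, -0.36, -0.25, -0.36, -0.36 and -0.35. Each of these 6 lost its call without at least T-REX library 2, with a highest adjusted p of 0.111, 0.123, 0.124, 0.153, 0.181 and 0.0969 over the 16 libraries left out in turn. SP9, NR2F1, ZIC2, TFAP2A and ID2, like PITX1, are among the 19 genes with DMSO libraries 1 and 3 above 2 and 4, whereas RARB, POU3F2 and SOX4 are not.

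Other called genes were scattered over many functions. FBXO5, the inhibitor of the anaphase-promoting complex also called EMI1, measured 113, 109, 108 and 104 CPM in the T-REX libraries and 136, 138, 127 and 137 CPM in the DMSO libraries. All T-REX libraries were lower (log2 fold change -0.31 ± 0.0471 (SE), adjusted p = 0.00148). CREB5, a CRE-binding transcription factor, measured 267, 279.96, 261 and 268 CPM in the T-REX libraries and 216, 232, 215 and 209 CPM in the DMSO libraries, and was higher (log2 fold change 0.30 ± 0.0493 (SE), adjusted p = 0.00387). Its call was lost with DMSO libraries 1 and 3 both left out (adjusted p = 0.157). MAP1B, which binds microtubules, measured 350.3, 374, 384 and 363 CPM in the T-REX libraries and 299, 312, 278 and 309 CPM in the DMSO libraries. The arms did not overlap (log2 fold change 0.30 ± 0.0522 (SE), adjusted p = 0.00838), and the call was lost without T-REX library 2 (adjusted p 0.051). HRK, a BH3-only activator of apoptosis, measured 26.4, 27.5, 27.1 and 26.96 CPM in the T-REX libraries and 20.2, 20.7, 19.3 and 22.3 CPM in the DMSO libraries. The T-REX libraries were almost level (log2 fold change 0.39 ± 0.0814 (SE), adjusted p = 0.0335), and the call was lost without T-REX library 1, 2, 3 or 4 or DMSO library 1 or 3 (adjusted p up to 0.123). MAP2K6, a kinase upstream of p38, was lower at -0.37 ± 0.0841 (SE), adjusted p = 0.049, a call lost without T-REX library 1, 2, 3 or 4 or DMSO library 1, 2, 3 or 4 or light alone library 1 or 2 or probe alone library 1, 2, 3 or 4 (adjusted p up to 0.179).

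The remaining higher genes were the transporter SLC16A9 (0.54), the potassium channel KCNT2 (0.48), the lipid phosphatase PLPP5 (0.49), the nuclear receptor PPARA (0.33), SERPINB6 (0.29), NHSL1 (0.31), PCLO (0.26), UACA (0.24), the antisense RNA GLIPR1-AS1 (0.46) and the pseudogene SMG1P7 (0.38). The remaining lower genes included PPP1R16A (-1.18), PNRC1 (-0.25), the insulin receptor substrate IRS4 (-0.25), the protease inhibitor CSTB (-0.49), the ubiquitin ligase MGRN1 (-0.44), NT5C3B (-0.31), the oxidative phosphorylation genes NDUFC1 (-0.39) and ATP5ME (-0.36), the pseudogene MTCO1P12 (-0.47), and ENSG00000280322 (-0.28), an identifier with no symbol. SMG1P7 and MTCO1P12 are close copies of SMG1 and of the mitochondrial gene MT-CO1, so how reads were assigned to them is uncertain, and the same holds for GLIPR1-AS1, because it is not stated whether the counting used strand. In RNA from whole cultures, a lower level in every cell and a change in fewer cells cannot be told apart.

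Several lists of stress programs held no called gene. Of 18 genes of NRF2 electrophile defence, the program best known for answering electrophiles, 0 were called (5 with p of 0.05 or less before adjustment, and DESeq2 called 1), with a list median of 0.0624. SLC7A11, which rose, is also a known NRF2 target but was listed with the transporters and so is not counted here. The members with the smallest p were ME1, malic enzyme, at 0.32 ± 0.0932 (SE), adjusted p = 0.124, and GCLM, of glutathione synthesis, at 0.22 ± 0.0694 (SE), adjusted p = 0.159. Of 16 heat shock genes, 0 were called (2 with p of 0.05 or less before adjustment, and 0 by DESeq2), with a list median of -0.03, and HSPA1B, which encodes an inducible HSP70, was at -0.38 ± 0.164 (SE), adjusted p = 0.364, while the chaperonin partner HSPE1 was at -0.34 (adjusted p = 0.328). Of 18 p53 targets, 0 were called (5 with p of 0.05 or less before adjustment, and DESeq2 called 1), with a list median of -0.166. CDKN1A, the cell cycle inhibitor p21, measured 172, 181, 199.8 and 206 CPM in the T-REX libraries and 240.3, 226, 271 and 224 CPM in the DMSO libraries. Its arms did not overlap, but its log2 fold change of -0.34 (adjusted p = 0.112) missed the threshold. GDF15 was at -0.54 (adjusted p = 0.263). A p that misses the threshold does not show that these programs were equal in both arms.

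Of 24 genes of sterol and fatty acid synthesis, 1 was called higher, beside 0.177% of all genes, with a list median of 0.0609. INSIG1, which holds back the activation of sterol synthesis, measured 168, 174, 171 and 146 CPM in the T-REX libraries and 131, 138, 129.96 and 134 CPM in the DMSO libraries. Every T-REX library was higher (log2 fold change 0.31 ± 0.0651 (SE), adjusted p = 0.0335), and the call was lost without T-REX library 1, 2 or 3 or DMSO library 1 or 3 (adjusted p up to 0.146). HMGCS1, at the head of the pathway, was at 0.25 (adjusted p = 0.0982). Of 22 nuclear cap and mRNA export factors, 0 were called (4 with p of 0.05 or less before adjustment, and 0 by DESeq2), with a list median of -0.0675, and SF3A3, a splicing factor, was next to NCBP1 by p at 0.16 (adjusted p = 0.239).

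Of 27 genes that the study names for RNA-seq or splicing, a list chosen by the study partly on these libraries and so no independent evidence, XBP1 and HRK were called higher and TXNIP, POU3F2 and MAP2K6 lower. The list median was -0.0697. RPS6KB1, which encodes the kinase S6K1, measured 124, 119, 119 and 119 CPM in the T-REX libraries and 127, 127, 118 and 133 CPM in the DMSO libraries. The arms overlapped, with a log2 fold change of -0.07 ± 0.0556 (SE), adjusted p = 0.678, and counts per gene do not resolve its splice forms. The other 21 genes of this list had log2 fold changes between -0.64 and 0.20.

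The levels in the light alone and probe alone arms are given beside these changes, in libraries that the same fit shares. In 15 of the 26 genes called higher and in 16 of the 35 called lower, the 4 T-REX libraries lay beyond all 12 libraries of the other arms, against 120 (0.817%) of all genes. The DMSO libraries among the 12 had entered the call, so the share of all genes is not a like background. SLC7A11 measured 156 ± 8.49 CPM in T-REX and 89.7 ± 11.7 CPM in DMSO, with 96.5 ± 9.91 CPM in light alone and 93.6 ± 4.89 CPM in probe alone (SD, n = 4 each). TXNIP measured 30.1 ± 4.09 CPM in T-REX and 55.3 ± 1.04 CPM in DMSO, with 55.5 ± 3.56 CPM in light alone and 58.1 ± 7.29 CPM in probe alone. The other 3 arms lay close together for both genes. SLC1A4 measured 27.7 ± 3.03 CPM in light alone and 31.5 ± 2.03 CPM in probe alone, and KDM3A 165 ± 10.2 CPM in light alone and 184 ± 16.8 CPM in probe alone, again near DMSO. SEC24D measured 60.1 ± 4.12 CPM in light alone and 63.3 ± 1.92 CPM in probe alone. Its probe alone libraries (61.3 to 65.7 CPM) all lay above its DMSO libraries (51.0 to 59.3 CPM). CREB3L2 measured 188 ± 2.84 CPM in T-REX and 140 ± 6.09 CPM in DMSO, with 143 ± 9.69 CPM in light alone. Its probe alone level, 162 ± 5.17 CPM, lay between DMSO and T-REX.

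Among other called genes, the arms were ordered in several ways. For RARB and STC1, the T-REX libraries still lay under all 12 libraries of the other arms. JUNB measured 1.32 ± 0.383 CPM in T-REX and 3.89 ± 1.65 CPM in DMSO, with 1.799 ± 0.210 CPM in light alone and 1.498 ± 0.339 CPM in probe alone, so that light alone and probe alone lay near T-REX. H2AC25 measured 4.34 ± 0.261 CPM in T-REX and 9.59 ± 4.39 CPM in DMSO, with 4.75 ± 0.6604 CPM in light alone and 4.803 ± 0.324 CPM in probe alone, and TNRC18 27.7 ± 4.58 CPM in T-REX and 45.8 ± 10.8 CPM in DMSO, with 26.7 ± 3.85 CPM in light alone and 32.5 ± 4.16 CPM in probe alone. RARB measured 23.9 ± 1.17 CPM in T-REX and 35.1 ± 2.72 CPM in DMSO, with 30.3 ± 3.11 CPM in light alone and 53.3 ± 2.52 CPM in probe alone, where probe alone lay highest. INSIG1 measured 165 ± 12.7 CPM in T-REX and 133 ± 3.41 CPM in DMSO, with 148 ± 13.7 CPM in light alone and 171 ± 11.3 CPM in probe alone, where probe alone lay at the level of T-REX. STC1 measured 1.13 ± 0.417 CPM in T-REX and 3.59 ± 0.753 CPM in DMSO, with 2.79 ± 0.576 CPM in light alone and 4.36 ± 1.73 CPM in probe alone, and probe alone was widely spread. For the called lower genes with T-REX beyond all 12 libraries the median GC content was 44.8%, and for the other called lower genes it was 58.1%.

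The change of these differences with time was tested in 1 fit of all 48 libraries. The T-REX minus DMSO difference at 12 h less that at 6 h passed in 0 genes (0%) by edgeR, with 1631 genes whose p was 0.05 or less before adjustment and 39 genes called by DESeq2. The difference at 6 h less that at 3 h passed in 2 genes (0.0136%), both higher, with 2259 genes of that kind before adjustment and 89 called by DESeq2. MAP1B was at -0.04 at 3 h, 0.30 at 6 h and 0.16 at 12 h, a difference of 0.34 ± 0.0664 (SE), adjusted p = 0.0356. CCND2, which encodes cyclin D2, was at -0.29 at 3 h, 0.14 at 6 h and -0.10 at 12 h, a difference of 0.43 ± 0.0789 (SE), adjusted p = 0.0219, with a sign that turned between 3 and 6 h. Both were lost without T-REX 3 h library 3, without DMSO 3 h library 1 or 4, and without T-REX 6 h library 2 or 3 or DMSO 6 h library 3, where 0 genes were called.

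**Figure D4:**
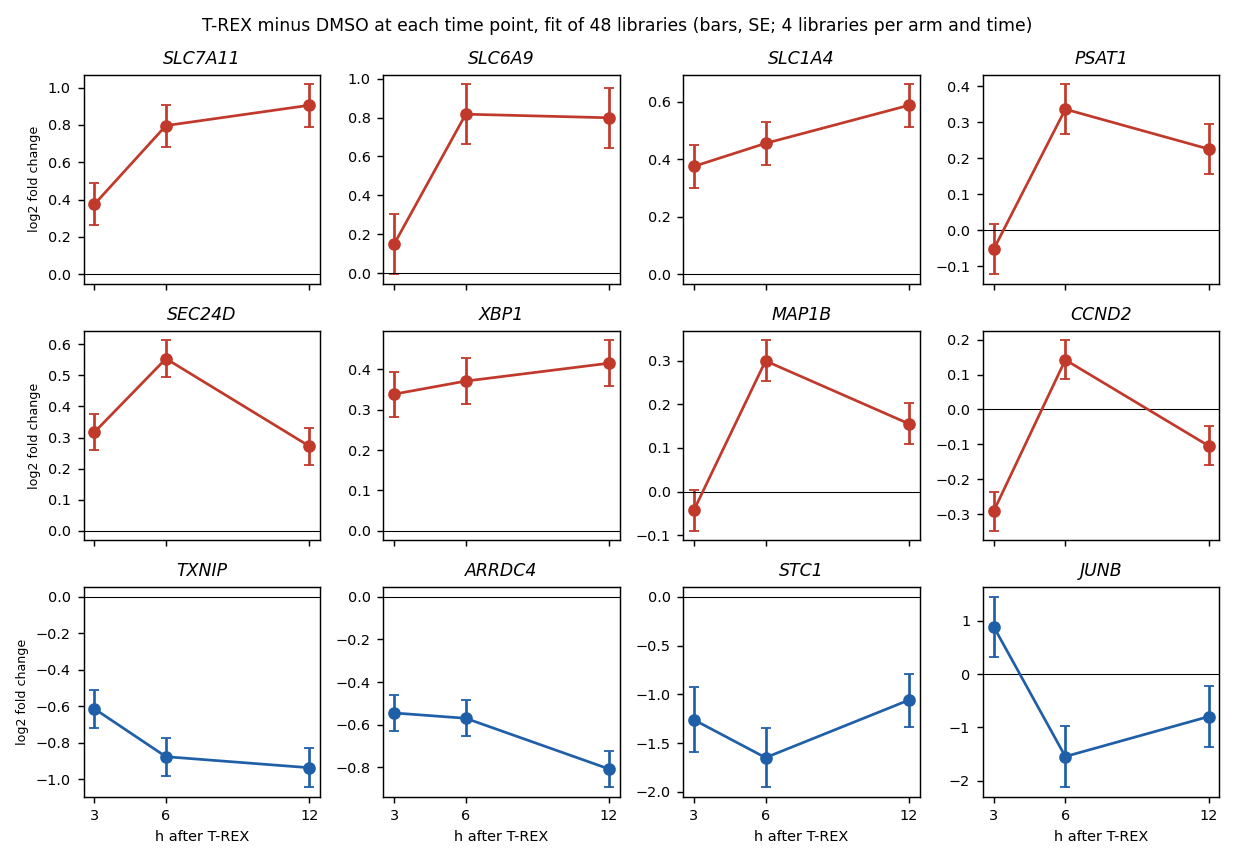
Log2 fold change, T-REX minus DMSO, of 12 genes at 3, 6 and 12 h in the fit of 48 libraries, with bars of 1 SE. SLC7A11, SLC6A9, SLC1A4, SEC24D, XBP1, TXNIP, ARRDC4 and STC1 keep their sign at all 3 times. JUNB, CCND2, PSAT1 and MAP1B differ in sign between 3 and 6 h, the last pair from small values at 3 h.

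For the genes called at 6 h, the values at the other times are given from that fit as a description, with libraries shared between the fits. SLC7A11 was at 0.37 at 3 h, 0.80 at 6 h and 0.91 at 12 h, SLC1A4 at 0.38 at 3 h, 0.46 at 6 h and 0.59 at 12 h and XBP1 at 0.34 at 3 h, 0.37 at 6 h and 0.42 at 12 h, which keep their sign. TXNIP was at -0.61 at 3 h, -0.88 at 6 h and -0.94 at 12 h, ARRDC4 at -0.54 at 3 h, -0.57 at 6 h and -0.81 at 12 h and STC1 at -1.26 at 3 h, -1.65 at 6 h and -1.06 at 12 h. SLC6A9 was at 0.15 at 3 h, 0.82 at 6 h and 0.80 at 12 h, PSAT1 at -0.05 at 3 h, 0.34 at 6 h and 0.23 at 12 h and MTHFD2 at 0.02 at 3 h, 0.27 at 6 h and 0.21 at 12 h, where the values at 3 h are near 0 or within their SE of it. SEC24D was at 0.32 at 3 h, 0.55 at 6 h and 0.27 at 12 h, with its highest value at 6 h, but neither difference between times passed for it (adjusted p = 0.166 and 0.19). JUNB was at 0.89 at 3 h, -1.54 at 6 h and -0.80 at 12 h and H2AC25 at 1.998 at 3 h, -1.13 at 6 h and -1.32 at 12 h, with a change of sign after 3 h that did not pass the test (adjusted p = 0.161 and 0.144), and in the fit of 48 libraries, whose spread is over all times, neither was called at 6 h (adjusted p = 0.266 and 0.532), whereas TXNIP was (adjusted p = 7.55e-07).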

How the data were processed

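RNA of HEK293T cells was sequenced after rRNA depletion with stranded reagents. The authors deposited whole-number counts per gene for each time point, log2 CPM made from them, and scores, 2 factors of unwanted variation per library. The study lists cutadapt, TopHat and Cufflinks for its RNA-seq, but which tool made these whole-number counts, and the genome build and annotation, were not given in the sources used here, and the deposited identifiers carry no coordinates. The deposited scores entered as covariates in 1 alternative and the deposited log2 values in another, and tables with those factors removed were not used.

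Counts were scaled by TMM and fitted with edgeR 4.0.16 (R 4.3.3) over the 16 libraries of 6 h, with an arm mean each, and tested with the robust quasi-likelihood F-test. Genes were called at a Benjamini-Hochberg adjusted p of 0.05 over all genes. filterByExpr removed 0 genes. Differences between times were fitted over 48 libraries. The scripts were tested on simulated data. DESeq2 1.42.0, limma 3.58.1, other scaling, a replicate block and each library left out were alternatives. GC content came from the longest GENCODE 29 transcript of 14556 genes. Symbols matched 13443 identifiers, and others were named by identifier.

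Named were the 10 highest and 10 lowest called genes with libraries that did not overlap, the leading members of each list, the genes the study names, and genes called between times. Of the called genes, 1 is not reported here. The other called genes were named after their values were seen, as were the GC and histone comparisons. The members and lists were chosen with earlier results of these data known. The totals per library are in the report, and the spread between libraries sets the precision.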

Additional observations from a re-analysis of the deposited data

Results flagged for a closer look

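In 7 of 200 groups of 4 libraries, over the 100 genes named by rule or called, 1 library stood apart from the other 3 by Dixon's test at 95%, where chance gives about 1 in 20. The flags were thus no more frequent than chance gives, and they are listed as a description. In DMSO, CREB3L2 was lowest in library 1 at 131 CPM against 142 to 144 CPM, and SP9 was lowest in library 2 at 9.83 CPM against 11.5 to 11.7 CPM. DMSO library 3 was lowest for CCND2 at 237 CPM against 283 to 285 CPM, and highest for NHSL1 at 46.3 CPM against 39.3 to 39.7 CPM. T-REX library 1 was highest for RPS6KB1 at 124 CPM against 119 CPM, for ATP5ME at 20.2 CPM against 18.7 to 18.9 CPM, and for NR2F1 at 39.7 CPM against 38.1 to 38.3 CPM.

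The T-REX minus DMSO difference was larger at 6 h than at 3 h by 0.43 on the log2 scale for CCND2 and by 0.34 for MAP1B, which passed the test of the difference (edgeR quasi-likelihood F-test, adjusted p = 0.0219 and 0.0356). The CCND2 value rests in part on the low DMSO library 3 of 6 h, without which it was 0.37 (adjusted p = 0.155).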

How the results depend on the processing

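The 61 calls, 26 higher and 35 lower, became 288, 104 and 184 with DESeq2, 1048, 359 and 689 with the deposited factors as covariates, 128, 54 and 74 with only the T-REX and DMSO libraries, 271, 88 and 183 with GC and length offsets, and 10, 5 and 5 with DMSO libraries 1 and 3 both left out. Leaving out each library in turn gave 11 to 222 calls, 7 to 90 higher and 4 to 132 lower. Of the 61 genes, 9 remained called without both DMSO libraries 1 and 3, and 11 to 61 with 1 library left out. The calls within the 15 pathway lists, 17 in all, became 29 with DESeq2, 72 with the factors, 31 with only both arms, 31 with the offsets, 7 without DMSO libraries 1 and 3, and 8 to 25 with 1 library left out. NCBP1 passed with the replicate block (0.434), the factors (0.444) and only both arms (0.439), and ran from 0.378 to 0.506 with 1 library left out. The 0 calls for 12 h less 6 h became 15 with the replicate block, 1195 with the factors, 1 with only both arms, 39 with DESeq2, 25 with the offsets and 0 to 65 with 1 library left out. The 2 calls for 6 h less 3 h became 1 with RLE factors, 25 with the replicate block, 1967 with the factors, 0 with only both arms, 89 with DESeq2, 133 with the offsets and 0 to 85 with 1 library left out. The cause was not tested for any of these.

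The replicate block gave 53 calls at 6 h, 46 of them among the 61. The numbers did not pair the libraries, since deviations of same-numbered T-REX and DMSO libraries correlated at -0.0275, 0.124, -0.117 and -0.347 over 10076 genes. Among the named genes, CCDC124 alone reversed, from -0.227, not called, to 0.0729 with the offsets, 0.335 without DMSO libraries 1 and 3, and, with 1 library left out, ran from -0.397 (without DMSO replicate 4) to 0.132 (without DMSO replicate 3). The filter on low counts removed 0 genes, so leaving it out could not change the calls. The median of all genes stayed within 0.01 of 0 on the log2 scale in every alternative.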

Other observations

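Histone genes, a group chosen after their values were seen, were mostly lower in T-REX than in DMSO at 6 h, and 1 of 49 passed the test, H2AC25, beside 0.415% of all genes. The log2 fold change was under 0 in 42 of the 49, beside 7433 of all 14685 genes, with a median of -0.362. H2BC18 measured 20.7, 24.8, 29.8 and 30.5 CPM in the T-REX libraries and 89.5, 38.1, 108 and 33.7 CPM in the DMSO libraries, a log2 fold change of -1.34 (adjusted p = 0.106). H3C13 was at -1.48 (adjusted p = 0.112) and H3C12 at -1.32 (adjusted p = 0.124). DMSO libraries 1 and 3 were the highest of the DMSO libraries in 37 of the 49 genes, beside 21.2% of all genes, and T-REX and DMSO did not overlap in 15, beside 7.93% of all genes. H2BC18 in DMSO libraries 2 and 4 lay close to the highest T-REX libraries, as did its means of 34.5 CPM in light alone and 31.7 CPM in probe alone. For H3C12 the means were 27.4 CPM in light alone and 23.0 CPM in probe alone, under the 49.7 and 65.7 CPM of DMSO libraries 1 and 3. In the fit of 48 libraries the median of the 49 stood at 0.192 for 3 h, -0.361 for 6 h and -0.393 for 12 h, beside 0.0274 at 3 h and 0.00433 at 12 h for all genes. The part of these libraries in the histone values was not tested further.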
